A study of Caenorhabditis elegans with 6 samples.

Results

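The genes described here are nuclear genes for subunits of the mitochondrial respiratory chain and ATP synthase, and for cytochrome c, of the nematode Caenorhabditis elegans. They were chosen by WormBase symbol as 43 of the 46932 genes in the deposited count table, and all 43 were found there. They comprise 14 genes of complex I, 4 of complex II, 6 of complex III, 2 of cytochrome c, 7 of complex IV and 10 of ATP synthase. The set is not complete, and 21 other annotated chain subunits, most of them of complex I, are given further below. RNA was sequenced from fluorescence-sorted cells of male worms at the young adult stage; the labels give the cells as rectal valve and rectal gland cells, 5000 per library, and none of the sources used states how pure they were. The csr-1a mutant group (3 libraries) carried gfp::sl2::2xflag::aid::csr-1a_delta, and the wild-type (WT) group (3 libraries) carried gfp::sl2::2xflag::aid::csr-1a, so both had an edited csr-1 locus. Both groups also carried the him-8 mutation, which raises the share of males, and the wrmScarlet reporters of the pnc-1 and pcs-1 promoters on extrachromosomal arrays, and the parents of both had been heat-stressed as late L4 larvae. An extrachromosomal array is passed on unevenly and can be missing from some cells. The labels call the libraries biological replicates without stating whether they came from separate cultures, so p-values measure the spread between these libraries. The series' design text asks how mutation of csr-1a changes the shape of the tail.

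The respiratory chain passes electrons from NADH (complex I) and succinate (complex II) through ubiquinone, complex III and cytochrome c to oxygen at complex IV. Complexes I, III and IV pump protons across the inner mitochondrial membrane, and ATP synthase uses the return flow to make ATP. Complexes I, III and IV and ATP synthase combine subunits encoded in the nucleus with a few encoded in mitochondrial DNA, whereas complex II and cytochrome c are encoded in the nucleus only. Muscle is rich in mitochondria and uses much of the ATP made by this chain.

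Total counts were 22470932 to 47890863 per mutant library and 17748698 to 26577422 per WT library, of which ribosomal RNA took 74.4% to 78.4%. The 43 genes received 47749 to 148688 counts per mutant library and 24317 to 37674 per WT library. Mutant replicate 2 and WT replicate 3 had the fewest genes detected (12757 and 14012). The targeted gene csr-1 stood at 184.8, 157 and 153 CPM (counts scaled to library size) in mutant samples, against 185.4, 210 and 267 CPM in WT samples. The groups did not overlap, and edgeR did not call the gene (log2 fold change -0.42 ± 0.17, adjusted p = 0.213). Counts per gene do not separate its a isoform, so these values do not check the genotype. Of 7 rectal cell and sort reporter genes, 5 passed the low-count filter and 2 were called higher, pnc-1 and pcs-1, whose promoters drive the sort reporters; 1 was called without mutant replicate 1, WT replicate 1 or WT replicate 2. These 2 genes summed to 40.8 to 70.3 CPM in mutant libraries and 15.9 to 23.4 CPM in WT libraries. The other 5 summed to 3.32 to 6.02 CPM in mutant and 2.06 to 4.08 CPM in WT libraries, with overlap; of these 3 were tested, with 0 called by edgeR and 0 at an unadjusted p under 0.05, and mab-9 was at 0 in all mutant libraries. The 5 coelomocyte genes, markers of scavenger cells of the body cavity, summed to 1692 to 2415 CPM in mutant and 3687 to 4290 CPM in WT libraries. All 5 were called lower in the mutant, where 1.55% of all tested genes were. That count was 2 without WT replicate 1 or WT replicate 3. It was 0 without mutant replicate 2 and WT replicate 3 together, and 4 or 5 with the other alternatives. The 41 body wall muscle genes summed to 11271 to 25910 CPM in mutant and 1364 to 1646 CPM in WT libraries. Of these, 32 were called higher and 0 lower by edgeR, and no gene of the list was at 0 in all WT libraries. In 3 of the 41 the log2 fold change was below 0. It was lowest in unc-120 (-0.84 ± 0.25, edgeR adjusted p = 0.0917), where every mutant library lay below every WT library. DESeq2, and edgeR without a low-count filter, each called 1 gene of the list lower. In such bulk samples, more cells of a type and more RNA per cell cannot be told apart.

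Respiratory chain and ATP synthase genes were higher in the mutant as far as they moved. Of 41 tested genes, 9 were called higher and 0 lower, where 4.04% of the 11968 genes tested were called higher, 1.55% lower and 5.59% in either direction. Levels are CPM after scaling, each log2 fold change (mutant over WT) is given ± its standard error, and a call is an adjusted p under 0.05 by edgeR's quasi-likelihood method, with p-values adjusted over all tested genes after Benjamini and Hochberg. The log2 fold change was above 0 in 40 of the 41 genes, with a median of 0.65. Over all tested genes 50.5% were above 0 and the median was 0.01. The exception was asb-1 at -0.02, which is above 0 under several other settings. At an unadjusted p under 0.05 stood 26 of the 41, all of them higher, against 9.39% of all tested genes. In 26 of 41 genes (63.4%) every mutant library lay above every WT library, and in none did every mutant library lie below, where 12.6% and 12.2% of all tested genes did so. The changes were moderate: 4 genes were at least 2-fold higher, 19 were between 1.5-fold and 2-fold and 17 were higher by less than 1.5-fold.

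Within these results the spread was larger in the mutant. Mutant replicate 1 held the highest mutant level in 34 of the 41 genes and mutant replicate 2 the lowest in 26, while no WT library stood out to that extent. The median coefficient of variation was 25.5% over the mutant libraries and 11.7% over the WT libraries. Mutant replicate 1 was also the library with the highest summed muscle level, 25910 CPM, against 11271 and 11861 CPM in mutant replicates 2 and 3; the part of muscle RNA in the respiratory chain result was not tested. Dropping mutant replicate 1 gave 6 calls, 4 of them among the 9, and a median of 0.44, where 2.57% of all tested genes were called higher. Dropping mutant replicate 2 or 3 gave 11 and 10 calls (4.26% and 3.37% of all tested genes), 5 and 8 of them among the 9. When WT replicate 1, 2 or 3 was dropped, 4, 3 and 2 of the 41 were called, where 2.92%, 2.75% and 2.93% of all tested genes were called higher. With mutant replicate 2 and WT replicate 3 both dropped, 2 of the 41 were called (3.74% of all tested genes). Only 1 of them, ucr-1, was among the 9. With DESeq2, a stricter filter and library totals alone, both the count and the share of all genes called higher were larger, and without a filter only the count was. DESeq2 called 19 of 41 (5.86% of all tested genes), and a stricter filter left 40 tested and 18 called (9.07% of all). Without a low-count filter 22 of 41 were called (3.09% of all). Library totals alone gave 19 of 41 (4.79% of all) and moved the median of all genes to 0.11; 573 of 662 calls were then higher, against 484 of 669 as reported.

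**Figure D1:**
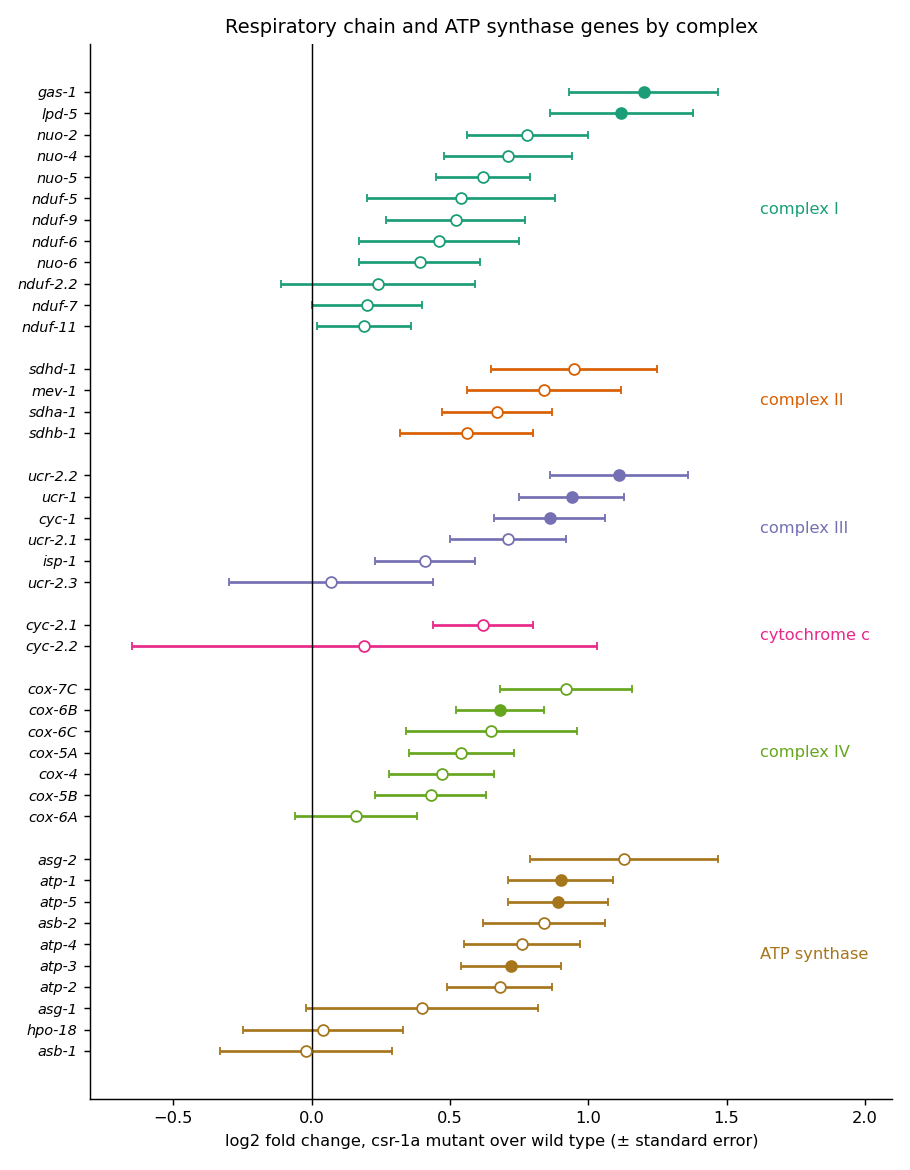
Log2 fold change of csr-1a mutant over WT for the 41 tested respiratory chain and ATP synthase genes, grouped by complex and ordered within it; bars are standard errors, filled points passed the test (adjusted p under 0.05) and open points did not. The points lie between -0.02 (asb-1) and 1.2 (gas-1), and 40 of 41 lie above 0.

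Complex I, the NADH dehydrogenase, had 2 of the 12 tested genes of this set called higher, with a median of 0.53 on the log2 scale. Further complex I genes make up most of the 21 other chain subunits given below, of which edgeR called 0. The gene gas-1 (WBGene00001520, WBcel235 chromosome X, 15586786 to 15590397), which encodes a core subunit near the ubiquinone site and whose mutants are hypersensitive to volatile anaesthetics, was at 59.4, 33.9 and 29.8 CPM in mutant libraries, against 15.3, 16.4 and 21.9 CPM in WT libraries. No WT library reached any mutant library, and the log2 fold change was 1.2 ± 0.27 (adjusted p = 0.0232), the highest of the 41 genes. The gene lpd-5 (WBGene00003061, chromosome I, 4372255 to 4373018), which encodes an accessory subunit related to mammalian NDUFS4, was at 14.0, 14.2 and 10.1 CPM in the mutant and at 5.52, 6.44 and 5.73 CPM in WT. Its groups did not overlap either (log2 fold change 1.12 ± 0.26, adjusted p = 0.0273). For gas-1, dropping WT replicate 1 or 2 ended the call (adjusted p = 0.0807 and 0.071), as did dropping mutant replicate 2 and WT replicate 3 together. That of lpd-5 ended without each library other than mutant replicate 3 (adjusted p = 0.0568 to 0.127).

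The other tested complex I genes of the set did not pass the test, and their log2 fold changes ranged from 0.19 to 0.78. The gene nuo-2, for a core subunit of the arm that projects into the matrix, was at 29.2, 26.4 and 18.2 CPM in the mutant and at 14.3, 13.1 and 15.7 CPM in WT (0.78 ± 0.22, adjusted p = 0.0693). The iron-sulphur subunit gene nuo-5 was at 77.4, 61.3 and 55.0 CPM in the mutant and 42.6, 44.7 and 38.5 CPM in WT (0.62 ± 0.17, adjusted p = 0.0598). In both genes every mutant library lay above every WT library. The lowest value was that of nduf-11, at 34.7, 30.3 and 28.4 CPM in the mutant and 25.6, 29.3 and 27 CPM in WT (0.19 ± 0.17, adjusted p = 0.681), where the groups overlapped. The genes nuo-1 and nuo-3 had no count in any library, although the other complex I genes of the set had a mean of 15.3 CPM per kb in WT. In the WBcel235 annotation 72.6% of the exon length of nuo-3 is shared with Y57G11C.1147 on the same strand, which also had no count. In contrast, nuo-1 shares only 6 bp, or 0.374% of its exon length, with C09H10.4, likewise at 0. A count of 0 allows up to 3 counts, or 0.0630 to 0.177 CPM depending on the library, and whether shared exons account for it was not tested.

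Complex II, succinate dehydrogenase, had 0 of 4 genes called by edgeR, with 4 of 4 at an unadjusted p under 0.05 and a median log2 fold change of 0.75; DESeq2 called 1 of the 4, sdha-1 (adjusted p = 0.0498), and limma-voom 0. The flavoprotein gene sdha-1, the member with the smallest p, was at 111.8, 69.7 and 71.2 CPM in the mutant and at 51.4, 46.8 and 60.9 CPM in WT. The groups did not overlap (log2 fold change 0.67 ± 0.20, adjusted p = 0.0931). The iron-sulphur subunit gene sdhb-1, the lowest of the 4, was at 46.2, 27.2 and 38.1 CPM in the mutant and 29.2, 27.8 and 18.4 CPM in WT, with overlap (0.56 ± 0.24, adjusted p = 0.245). The membrane anchor genes mev-1, known for oxidative stress sensitivity and short life when mutated, and sdhd-1 had log2 fold changes of 0.84 ± 0.28 and 0.95 ± 0.30 (adjusted p = 0.131 and 0.107).

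Complex III, which hands electrons from ubiquinol to cytochrome c, had 3 of 6 genes called higher and a median of 0.78 on the log2 scale. The core protein gene ucr-1 (WBGene00018963, chromosome III, 5592135 to 5594401) was at 93.4, 62.5 and 69.8 CPM in the mutant, against 41.4, 42.5 and 33.9 CPM in WT. Its groups were well apart (log2 fold change 0.94 ± 0.19, adjusted p = 0.0126). The cytochrome c1 gene cyc-1 (WBGene00000869, chromosome I, 8022674 to 8024422) was at 85.3, 60.6 and 59.3 CPM in the mutant and 42.7, 40.9 and 29.7 CPM in WT (0.86 ± 0.20, adjusted p = 0.0307). The second core protein gene ucr-2.2 (WBGene00011679, chromosome X, 15173904 to 15178145) was at 30.5, 25.5 and 16.9 CPM in the mutant and 10.3, 10.2 and 13.3 CPM in WT (1.11 ± 0.25, adjusted p = 0.0248). The Rieske iron-sulphur protein gene isp-1 did not pass, at 86.0, 54.7 and 66.9 CPM in the mutant and 51.3, 50.9 and 54.2 CPM in WT (0.41 ± 0.18, adjusted p = 0.272). The call of ucr-1 ended only without WT replicate 3 (adjusted p = 0.0714). That of cyc-1 ended without mutant replicates 1 or 3 or WT replicates 2 or 3 (adjusted p = 0.0563 to 0.133), and that of ucr-2.2 without mutant replicates 1 or 2 or WT replicates 1 or 2 (adjusted p = 0.0539 to 0.094).

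Cytochrome c, the mobile carrier between complexes III and IV, is encoded by 2 genes, of which edgeR called 0; 1 stood at an unadjusted p under 0.05, DESeq2 called 1 and limma-voom 0. The abundant form cyc-2.1 was at 134, 103 and 95.9 CPM in the mutant and at 71.9, 61.2 and 83.5 CPM in WT. The groups did not overlap (log2 fold change 0.62 ± 0.18, adjusted p = 0.0714). The rare form cyc-2.2 was at 2.48, 0.515 and 0.887 CPM in the mutant and 1.48, 1.58 and 0.355 CPM in WT, with overlap and a wide error (0.19 ± 0.84, adjusted p = 0.96).

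Complex IV, cytochrome c oxidase, had 1 of 7 genes called higher, and the median of the log2 fold changes was 0.54. The called gene was cox-6B (WBGene00022170, chromosome III, 2699663 to 2786859), at 54.4, 51.0 and 44.9 CPM in the mutant and 32.5, 27.7 and 33.8 CPM in WT. The groups did not overlap (log2 fold change 0.68 ± 0.16, adjusted p = 0.0334), although the call ended without each library other than mutant replicate 3 (adjusted p = 0.0521 to 0.156). The gene cox-7C had a larger fold change but a wider error, at 37.9, 20.6 and 27.4 CPM in the mutant and 17.2, 13 and 15.1 CPM in WT (0.92 ± 0.24, adjusted p = 0.0506). The lowest was cox-6A, at 46.4, 25.9 and 29.8 CPM in the mutant and 30.4, 32.1 and 28.7 CPM in WT (0.16 ± 0.22, adjusted p = 0.813). Without mutant replicate 1 its value was -0.12. The other 4 genes, cox-4, cox-5A, cox-5B and cox-6C, had values of 0.43 to 0.65.

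ATP synthase had 3 of 10 genes called higher, and the median of the log2 fold changes was 0.74. The catalytic head is built of alpha and beta subunits. The alpha subunit gene atp-1 (WBGene00010419, chromosome I, 12652277 to 12654655) was at 457, 284 and 307 CPM in the mutant, against 200, 198 and 162 CPM in WT. The groups did not overlap (log2 fold change 0.90 ± 0.19, adjusted p = 0.0189). The beta subunit gene atp-2, the most abundant of the 43 genes per kb of exon in WT, was at 636, 391 and 420 CPM in the mutant and 315, 306 and 282 CPM in WT. Its groups did not overlap either, but it did not pass the test (0.68 ± 0.19, adjusted p = 0.061). The ratio of atp-1 to atp-2 in CPM per kb of exon was 0.682, 0.690 and 0.693 in mutant libraries and 0.604, 0.616 and 0.545 in WT libraries.

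The stalk that holds the head still contributed the other calls of ATP synthase. The gene atp-5 (WBGene00007385, chromosome V, 11122901 to 11123867), for subunit d, was at 117, 81.5 and 82.2 CPM in the mutant and 50.5, 54 and 46.5 CPM in WT (log2 fold change 0.89 ± 0.18, adjusted p = 0.012). The gene atp-3 (WBGene00000230, chromosome I, 5428533 to 5429908), for the subunit named for oligomycin sensitivity, was at 113, 95.9 and 72.2 CPM in the mutant and 56.4, 56.1 and 58.6 CPM in WT (0.72 ± 0.18, adjusted p = 0.038). In both, every mutant library lay above every WT library. The stalk gene atp-4 had 0.76 ± 0.21 (adjusted p = 0.0667). The gene hpo-18, for the epsilon subunit of the rotating stalk, was at 9.02, 8.67 and 10.6 CPM in the mutant and 11.7, 9.66 and 6.09 CPM in WT, so the groups overlapped (0.04 ± 0.29, adjusted p = 0.977). For atp-1 and atp-5, dropping WT replicate 3 ended the call (adjusted p = 0.107 and 0.0692), as did dropping it together with mutant replicate 2. That of atp-3 ended without each library other than mutant replicate 3 (adjusted p = 0.0631 to 0.127).

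**Figure D2:**
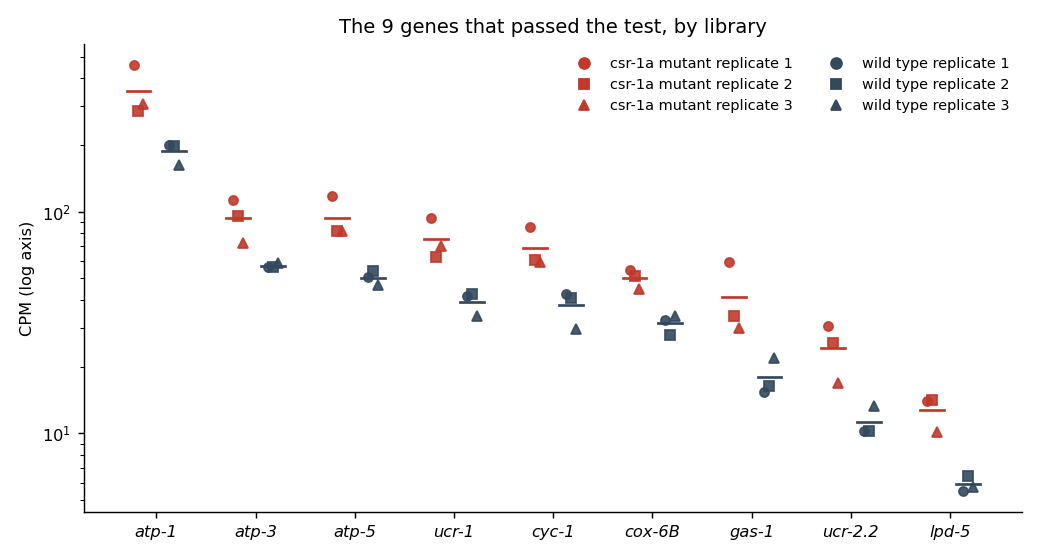
Level in CPM (log axis) of the 9 genes called higher, in each of the 3 csr-1a mutant libraries (left of each pair) and 3 WT libraries (right), with the group mean as a line. In all 9 the mutant libraries lie above the WT libraries, from atp-1 (mutant mean 349, WT mean 187 CPM) to lpd-5 (12.8 and 5.9 CPM).

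The summed CPM of their genes in the mutant over WT, as a ratio of group means, was 1.51 for complex I, 1.61 for complex II, 1.64 for complex III, 1.53 for cytochrome c, 1.44 for complex IV and 1.70 for ATP synthase. As a mean over the tested genes, ATP synthase stood at 120, 75.7 and 80.4 CPM per kb in mutant libraries and 57.4, 55.6 and 51.0 CPM per kb in WT libraries. Complex IV stood at 87.9, 56.1 and 61 CPM per kb in mutant libraries and 48.2, 46.7 and 45 CPM per kb in WT libraries. Complex I had the lowest level per length, 22.7 ± 5.09 CPM per kb in the mutant and 15.3 ± 0.146 in WT (SD, n = 3 each). Within a library, the ratio of ATP synthase to complex IV was 1.36, 1.35 and 1.32 in the mutant and 1.19, 1.19 and 1.13 in WT, which do not overlap. The ratios of ATP synthase to complexes I, II and III and to cytochrome c overlapped between the groups, at 4.03 ± 0.260, 2.95 ± 0.208, 2.48 ± 0.118 and 0.891 ± 0.0811 in the mutant and 3.57 ± 0.232, 2.88 ± 0.225, 2.36 ± 0.0130 and 0.829 ± 0.151 in WT (SD, n = 3 each). No test was made of differences between complexes, because genes of a complex are not replicates.

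**Figure D3:**
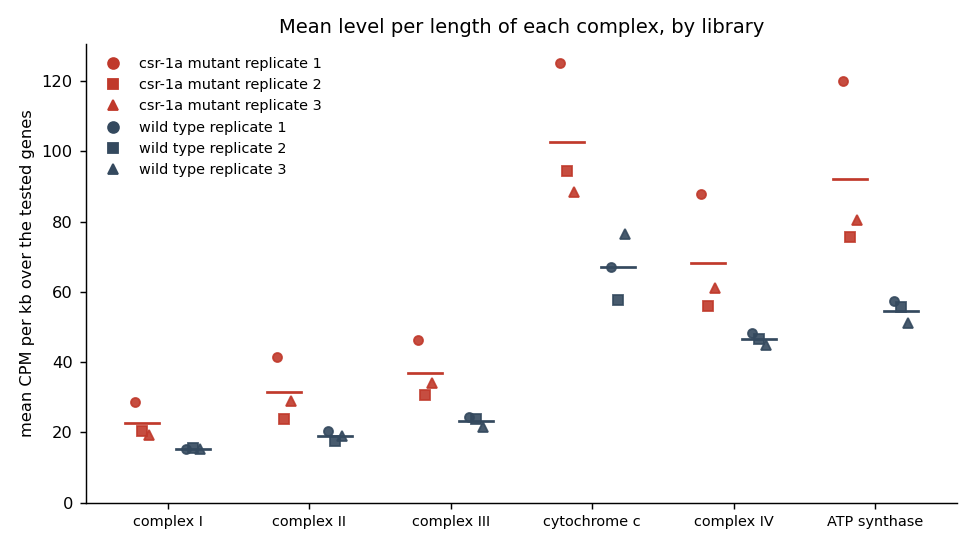
Mean level per exon length (CPM per kb) over the tested genes of each complex, in each csr-1a mutant library (left of each pair) and WT library (right), with group means as lines. For all 6 sets the mutant libraries lie above the WT libraries, and mutant replicate 1 is the highest, as for ATP synthase at 120 CPM per kb.

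The 12 subunits encoded in mitochondrial DNA did not share this difference. Of these, 0 were called in either direction by edgeR, DESeq2 or limma-voom. By edgeR 2 stood at an unadjusted p under 0.05, COX1 and ND5, and both were lower in the mutant. The value of ND5 was -0.32 ± 0.14 (adjusted p = 0.245). The median log2 fold change of the 12 was -0.12 (range over all alternatives -0.30 to -0.02). They summed to 1282, 1248 and 1526 CPM in mutant libraries and to 1799, 1437 and 1651 CPM in WT libraries, so the groups overlapped. The most abundant, COX1 of complex IV, was at 528, 482 and 648 CPM in the mutant and 786, 655 and 721 CPM in WT, which do not overlap (-0.38 ± 0.15, adjusted p = 0.213). ATP6 of ATP synthase was at 40.3, 55.2 and 45.7 CPM in the mutant and 63.2, 45.1 and 56.9 CPM in WT (-0.23 ± 0.18, adjusted p = 0.648). The 43 nuclear genes summed to 3125, 2037 and 2118 CPM in mutant libraries and 1552, 1510 and 1438 CPM in WT libraries.

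The ratio of nuclear to mitochondrially encoded counts, which does not depend on the scaling of libraries, was 2.44, 1.63 and 1.39 in the mutant and 0.863, 1.05 and 0.871 in WT. All mutant ratios lay above all WT ratios. By complex and per exon length, complex I genes over their 7 mitochondrial partners stood at 0.883, 0.527 and 0.499 in the mutant and 0.349, 0.427 and 0.372 in WT. For complex III over CYTB the ratio was 0.327, 0.293 and 0.225 in the mutant and 0.144, 0.186 and 0.151 in WT. For complex IV over its 3 partners it was 0.364, 0.240 and 0.209 in the mutant and 0.141, 0.177 and 0.140 in WT. For ATP synthase over ATP6 it was 1.79, 0.825 and 1.06 in the mutant and 0.547, 0.743 and 0.539 in WT. In all 4 complexes with subunits from both genomes the ratio was higher in every mutant library than in any WT library.

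**Figure D4:**
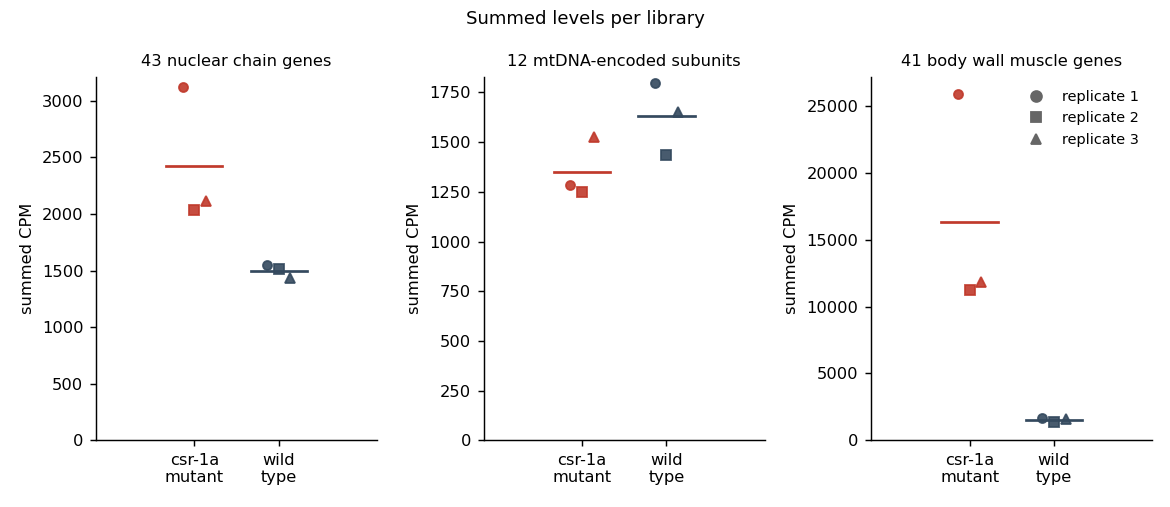
Summed CPM per library of the 43 nuclear respiratory chain and ATP synthase genes, the 12 subunits encoded in mitochondrial DNA and the 41 body wall muscle genes, in csr-1a mutant (left) and WT (right) libraries with group means as lines. The nuclear genes (2037 to 3125 and 1438 to 1552 CPM) and the muscle genes do not overlap between the groups, while the mitochondrially encoded subunits do.

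Several subunits are encoded by more than 1 gene, and the copies differed in their values. Subunit b of ATP synthase is encoded by asb-2, used in somatic tissues, and asb-1, known from the germ line. The gene asb-2 was at 181, 103 and 97.1 CPM in the mutant and 74.0, 66.7 and 72.9 CPM in WT (log2 fold change 0.84 ± 0.22, adjusted p = 0.0562). The gene asb-1 was at 10.2, 11 and 18.5 CPM in the mutant and 13.4, 17.9 and 8.81 CPM in WT (-0.02 ± 0.31, adjusted p = 0.99). Mutant and WT libraries did not overlap for asb-2 and overlapped for asb-1.

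In complex I, gas-1 was called, and its homologue nduf-2.2, at 6.94, 5.86 and 9.09 CPM in the mutant and 6.92, 7.97 and 3.55 CPM in WT, was not (0.24 ± 0.35, adjusted p = 0.829). For subunit g of ATP synthase, asg-2 was at 45.6, 15.5 and 24.6 CPM in the mutant and 13.3, 10.5 and 15.4 CPM in WT (1.13 ± 0.34, adjusted p = 0.0893). Its homologue asg-1 was at 6.45, 3.37 and 8.43 CPM in the mutant and 5.44, 5.72 and 2.66 CPM in WT (0.40 ± 0.42, adjusted p = 0.75). Among the complex III core protein genes, ucr-2.1 was at 68.5, 39.0 and 47.2 CPM in the mutant and 35.8, 28.9 and 30.0 CPM in WT (0.71 ± 0.21, adjusted p = 0.0893). The third copy, ucr-2.3, was at 10.4, 7.17 and 13.8 CPM in the mutant and 10.7, 14.0 and 5.20 CPM in WT (0.07 ± 0.37, adjusted p = 0.969). Without WT replicate 3, nduf-2.2 and ucr-2.3 had values of -0.04 and -0.25.

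Some of the copies that were not called shared an order of libraries, which was seen after their values were known and was not tested. Each of asb-1, nduf-2.2, asg-1, ucr-2.3 and cyc-2.2 was lowest in WT replicate 3 and highest in WT replicate 2 among the WT libraries, and all but cyc-2.2 were highest in mutant replicate 3 among the mutant libraries. The WT order was not particular to these copies, as the called genes ucr-1 and atp-5 had it too. Of the 41 tested genes, 21 were lowest in WT replicate 3 and 17 highest in WT replicate 2 within WT. In the mutant, 6 were highest in replicate 3. The 8 germline and sperm genes, of which 6 were tested and 0 called by edgeR, DESeq2 or limma-voom, with 0 at an unadjusted p under 0.05, summed to 57.9, 63.3 and 93.4 CPM in mutant replicates 1, 2 and 3 and to 66, 86.5 and 25.1 CPM in WT replicates 1, 2 and 3, and none was at 0 in all WT libraries. The ratio of asb-2 to asb-1 per kb was 15.4, 8.11 and 4.57 in the mutant and 4.80, 3.23 and 7.19 in WT, with overlap. The ratio of gas-1 to nduf-2.2 likewise overlapped, at 7.56, 5.11 and 2.89 in the mutant and 1.95, 1.82 and 5.46 in WT. The part of germline RNA in these values was not tested, nor was the difference in response between copies, and homologous genes may share reads.

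**Figure D5:**
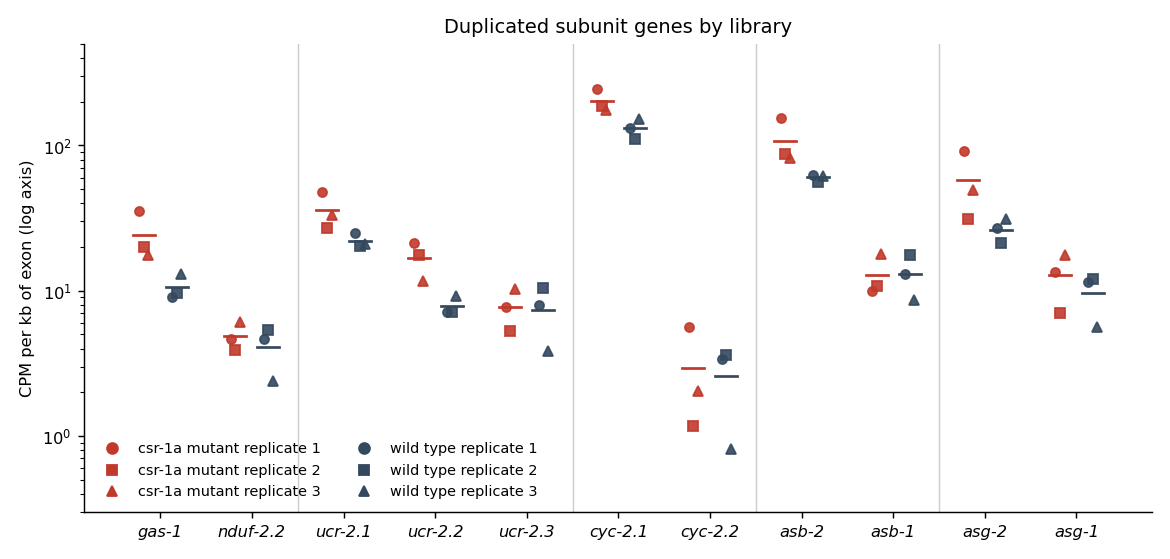
Level per exon length (CPM per kb, log axis) of subunits encoded by more than 1 gene, in each csr-1a mutant library (left of each pair) and WT library (right), with group means as lines; vertical lines separate the sets. In WT replicate 3 (triangles) the copies nduf-2.2, ucr-2.3, cyc-2.2, asb-1 and asg-1 are at their lowest WT level. There gas-1, ucr-2.2, cyc-2.1 and asg-2 are at their highest WT level, whereas ucr-2.1 and asb-2 are highest in WT replicate 1.

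The genes that surround the chain were described from lists beside the same background of 4.04% called higher. Most of the 21 other annotated chain subunits belong to complex I. Of the 21, 0 were called by edgeR and limma-voom and 4 by DESeq2. In 19 the value was above 0 and 8 stood at an unadjusted p under 0.05, with a median of 0.42 on the log2 scale. The one with the smallest p, the complex I accessory gene ndub-3, was at 15.8, 7.84 and 8.16 CPM in the mutant and 4.57, 4.70 and 2.60 CPM in WT (1.42 ± 0.37, adjusted p = 0.0502), and the lowest was ndub-6 (-0.11 ± 0.20, adjusted p = 0.875). Of 18 genes of pyruvate oxidation and the citric acid cycle, which feed the chain with NADH and succinate, 5 were called higher and 0 lower, with a median of 0.58. That count was 3 without WT replicate 2, 2 without WT replicate 3 and 3 without both libraries of fewest genes, and it was 9 without a low-count filter and 8 with the stricter filter. The NAD-dependent isocitrate dehydrogenase gene idhg-2 was at 39.6, 15.8 and 20.6 CPM in the mutant and 2.27, 1.74 and 1.42 CPM in WT, far outside the range of the respiratory chain genes (3.80 ± 0.38, adjusted p = 2.20e-04). The lowest of them was idh-2, another isocitrate dehydrogenase gene (-0.39 ± 0.33, adjusted p = 0.675).

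Of 62 tested genes of the mitochondrial ribosome, 2 were called higher, or 3.23%, which is near the background, although 57 of 62 were above 0 and the median was 0.72. By edgeR 15 of the 62 stood at an unadjusted p under 0.05, where 9.39% of all tested genes were higher at that level. In 24 (38.7%) every mutant library lay above every WT library, against 12.6% of all tested genes. The called genes were mrps-31 (1.99 ± 0.46, adjusted p = 0.0273) and mrpl-44 (1.08 ± 0.27, adjusted p = 0.0408), and the lowest was mrps-24 (-0.57 ± 0.99, adjusted p = 0.866). The count was 0 without mutant replicate 1, mutant replicate 2, WT replicate 2 or WT replicate 3, 1 without either of the other libraries, 7 with DESeq2, 7 of 64 without a low-count filter and 4 of 26 with the stricter filter. Assembly factors had 0 of 9 called by edgeR and limma-voom, 1 by DESeq2, 3 at an unadjusted p under 0.05 and a median of 0.41, with sft-1 the smallest p (2.48 ± 0.82, adjusted p = 0.123) and nuaf-1 the lowest value (-0.55 ± 0.38, adjusted p = 0.573). Ubiquinone synthesis had 0 of 7 called by edgeR, DESeq2 or limma-voom, 0 at an unadjusted p under 0.05 and a median of 0.50, from coq-4 at -0.75 ± 0.61 to clk-1 at 0.76 ± 0.47. With single libraries left out, the median ran from 0.08 (without mutant replicate 1) to 0.79 (without WT replicate 2) for assembly factors, and from 0.07 (without mutant replicate 1) to 0.74 (without mutant replicate 3) for ubiquinone synthesis. Of the 5 tested adenine nucleotide carriers and ATPase inhibitors 0 were called by edgeR, DESeq2 or limma-voom and 1 stood at an unadjusted p under 0.05, namely the exchanger gene ant-1.1. This gene was at 1171, 900 and 845 CPM in the mutant and 771, 731 and 745 CPM in WT (0.38 ± 0.15, adjusted p = 0.224). Its level per kb relative to atp-2 was 2.76, 3.46 and 3.02 in the mutant and 3.68, 3.59 and 3.97 in WT, which do not overlap. The lowest of these 5 was ant-1.3 (-0.21 ± 0.96, adjusted p = 0.962).

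As a share of all counts outside ribosomal RNA, the 43 genes took 1.29%, 0.910% and 0.971% in mutant libraries and 0.614%, 0.639% and 0.535% in WT libraries. Every mutant share lay above every WT share, and ATP synthase alone made up 0.539% ± 0.114 in the mutant and 0.289% ± 0.0330 in WT (SD, n = 3 each). In the same libraries the 41 muscle genes took 10.7%, 5.04% and 5.44% in the mutant and 0.651%, 0.577% and 0.604% in WT. With muscle genes removed from the counts before scaling, 9 of the 41 respiratory chain genes were called higher (3.80% of all tested genes), with a median log2 fold change of 0.70, against 0.04 over all tested genes. That setting removes listed muscle genes, not other RNA of muscle cells. Of the other marker lists, 0 of 4 pharyngeal muscle, 0 of 6 intestinal and 0 of 7 neuronal genes were called by edgeR or limma-voom, and DESeq2 called 1 intestinal gene lower. At an unadjusted p under 0.05 stood 3, 1 and 1 of them. Without mutant replicate 3 edgeR called 2 pharyngeal genes higher, and without WT replicate 2 it called 1. With library totals alone it called 1 of 4, and with the stricter filter 1 of 2. Without a low-count filter edgeR called 1 neuronal gene lower. The pharyngeal median log2 fold change was 1.71 (1.18 to 2.18 over all alternatives). The other medians turned sign with the setting: 0.06 for intestine (-0.98 to 0.23), -0.12 for neurons (-0.28 to 0.01) and 0.44 for hypodermis (-0.12 to 2.01). The value of 2.01 came from the stricter filter, which left 1 hypodermis gene tested. Of 4 tested hypodermis genes, 1 was called higher, rol-6 (1.91 ± 0.28), and the lowest was col-19 (-0.69 ± 0.38).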

How the data were processed

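The authors deposited raw read counts per gene for 6 libraries in a single table. Their processing notes list the tools DESeq2, featureCounts, STAR, Subread (version 2.0.0) and fastp (version 0.20.1), with neither role nor order. The sources used here give no genome build, annotation or strand setting, so reads of overlapping genes cannot be told apart. Of 46932 genes, 46919 were found by identifier in the WBcel235 annotation (Ensembl release 115), which gave symbols, 1-based coordinates and merged exon lengths. The 12 mitochondrial genes took RefSeq symbols by overlap in that assembly.

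The test was that of edgeR 4.0.16, run in R 4.3.3 (filterByExpr with minimum count 10 and total 15, TMM scaling, glmQLFit with robust=TRUE, group as the only term). It was fitted on all 11968 genes passing the filter and checked on simulated counts. The standard error is the log2 fold change divided by the root of F. The biological coefficient of variation was 0.465. CPM is relative to totals that include ribosomal RNA. CPM per kb divides by merged exon length. Chi-square per degree of freedom between libraries of a group was at least 6.14, above counting noise, so none was treated as a library deposited more than once; this does not show that they came from separate cultures. Floors cover counting error only, whereas standard errors and SDs include the spread between libraries.

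The members, lists and tests were chosen with earlier results of these data known. The text gives full values for called genes, for the smallest p and lowest fold change of each complex, and for duplicated subunits. From each related list it names the smallest p and the lowest fold change. Named after their values were seen were atp-2, atp-4, cox-7C, hpo-18, isp-1, mev-1, nuo-2, nuo-5, sdhd-1 and mrpl-44. Of the list names, opt-2 matched no gene. Alternatives were a replicate block, other scalings and filters, DESeq2 1.42.0, limma-voom (limma 3.58.1), robust=FALSE, ribosomal or muscle genes left out, other denominators for the share of counts, and libraries left out.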

Additional observations from a re-analysis of the deposited data

How the results depend on the processing

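The number of respiratory chain genes called higher, 9, was 19 with library totals alone, 22 without a low-count filter, 18 with a stricter filter (5 CPM in 3 libraries), 19 with DESeq2, 2 without the libraries of fewest genes, and 2 to 11 when each library was left out in turn. It stayed within 1.5 times with the other alternatives, and 0 were called lower under every alternative. The number of all genes called, 669, was 1048 without a filter, 1062 with DESeq2 and 416 to 697 with single libraries left out. The median log2 fold change with single libraries left out was 0.35 to 0.75 for complex I and -0.11 to 0.68 for cytochrome c, which rests on 2 genes. Over all alternatives the medians ran from 0.47 to 0.98 for complex II, 0.57 to 0.97 for complex III, 0.30 to 0.71 for complex IV and 0.51 to 0.92 for ATP synthase, each lowest without mutant replicate 1, and the log2 ratio of the share of counts from 0.64 to 0.93. The medians of other chain subunits and of carriers and inhibitors ran from 0.25 to 0.57 and from 0.14 to 0.49. Among single genes, asb-1 (-0.02 as reported) was at 0.06 with library totals alone, 0.06 with the stricter filter, 0.01 without ribosomal RNA genes and 0.01 without muscle genes, and hpo-18 was at -0.09 without the libraries of fewest genes. With single libraries left out, the log2 fold change ran from -0.04 to 0.46 for nduf-2.2, from -0.25 to 0.38 for ucr-2.3, from -0.70 to 0.62 for cyc-2.2, from -0.12 to 0.39 for cox-6A, from -0.30 to 0.24 for asb-1 and from -0.20 to 0.30 for hpo-18. The cause was not tested.

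The replicate numbers were not treated as pairs. Deviations of same-numbered libraries correlated at 0.0141, -0.0375 and -0.14, and no library correlated best with the one of its own number. With the number as a replicate block, 560 genes in all, 429 of them higher (3.58% of those tested), and 6 respiratory chain genes were called, 5 of the 9 reported and cox-7C (adjusted p = 0.0454); lpd-5, ucr-2.2, cox-6B and atp-3 were no longer called (adjusted p = 0.0658, 0.0573, 0.0836 and 0.075). Depth limits the scarce genes most, as cyc-2.2 at under 3 CPM in every library.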
